A study of Rattus norvegicus with 8 samples.

Results

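The cytosolic ribosomal protein genes encode the proteins that, with ribosomal RNA, build the small (40S) and large (60S) ribosomal subunits of the cytoplasm. They were taken as the probe sets annotated with exactly 1 gene symbol of the form Rpl or Rps and a number, Rplp0 to Rplp2 or Rpsa, without the S6 kinase genes, and where a gene had several, the brightest one on average stood for it. This gave 48 genes of 14217 in all, measured by 55 probe sets, with 15 genes of the small subunit and 33 of the large one. Of the 48, 42 encode core subunit proteins and 6 encode paralogs, close relatives that can stand beside or replace a core protein (Rpl3l, Rpl7l1, Rpl26l1, Rpl39l1, Rps27l and Rps4y2).

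The arrays hold hepatic RNA from male rats of the outbred Sprague-Dawley strain at 7 weeks of age, with 1 liver per array and 4 arrays per diet. The control diet was a purified AIN93G-type diet in which cellulose was replaced by Avicel, and the iron-deficient diet was the same without its iron salt, ferric citrate. Livers were taken on day 17 of the diet, after 1.5 h of feeding and following some days of daytime-limited feeding in all rats, when blood hemoglobin in the iron-deficient group stood at 42% of control. The labels call the arrays biological replicates but do not say which of the 7 deficient and 6 control rats gave them.

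Growing cells make ribosomal proteins in equal amounts for the subunits they assemble, and the liver, which secretes most plasma proteins, holds many ribosomes. Messenger RNAs for these proteins typically begin with a C followed by an unbroken run of pyrimidines, the 5′ terminal oligopyrimidine tract, through which mTOR signalling sets their translation by way of the protein Larp1. Iron enters this pathway through the oxygen- and iron-dependent enzymes that hydroxylate some ribosomal proteins and through Abce1, an iron-sulphur protein that splits ribosomes for recycling.

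The start of a transcript carries the tract, so the 30 bases around the annotated start are shown for the members whose groups did not overlap and for 5 other members, from the RefSeq promoter table on GRCr8, as 15 bases before and 15 from the start on. Capitals mark the longest tract, searched on the transcribed strand as a C within 10 bases of the start followed by at least 4 bases that are each C or T. Rps29 had no entry.
Rps28 (chr7:15311319-15311348, minus strand): gcatcccctgctcacgtgaCTCCTCTCCgc
Rpl3l (chr10:14258431-14258460, plus strand): gacctctggtgcctggtggggaggtCCCTT
Rps4y2 (chr4:183000898-183000927, plus strand): gcgcgcagCTCTCCTCactcgcttgtgctc
Rpl19 (chr10:83519049-83519078, plus strand): cgcgaccagcaagCTCTTTCCTTTCgctgc
Rps15 (chr7:10068101-10068130, minus strand): cgctgacaccgCTTCCTTTTCCCagcagcc
Rplp0 (chr12:46718376-46718405, minus strand): gaccgcaccgcaCTTCTCTCgccaggcgtc
Rps6 (chr5:106420526-106420555, minus strand): gacgcCTCCTaggcggtcggctgtgtcaag
Rpl26l1 (chr10:17029014-17029043, minus strand): aaatgtcatttccgggcctgcgcacacacc
Rpl19, Rps15 and Rplp0 show the tract across the annotated start, Rps28 has it a few bases downstream, and the paralog Rpl26l1 has none in the searched stretch. In Rps6 it lies wholly before the annotated start, outside the transcript as annotated. Among the 41 members with an entry, 27 (65.9%) held such a tract, against 28.8% of 27415 other genes in the table. These counts include tracts that lie wholly before the start. At the annotated start itself, a C followed by at least 4 pyrimidines was present in 26.8% of members and 2.6% of other genes. This includes runs that began further upstream. A tract starting within 10 bases of the annotated start was held by 24 of 35 core members and 3 of 6 paralogs.

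The values are log2 values as deposited, and differences between arrays are compressed to an extent that differs between probe sets. For that reason a difference is given in millionths of a log2 unit (1e-06) on the deposited scale, which is no fold change, and as a standardised difference, in units of the pooled SD within the diets. The within-group SD had a median of 1.93 millionths over the 48 members and of 8.72 millionths over all genes, and in members it ran from 0.159 for Rpl19 to 200 for Rps4y2. With the probe set of the hepcidin gene Hamp set aside, 35 of the 48 members held the same rank among 31041 probe sets on all 8 arrays. The mean deposited value of 41 members lay above the 75th percentile of the arrays (8.26), and that of Rpl28 and Rpl39l1 lay below the 25th percentile (6.55), so expression of these 2 above background was not shown.

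**Figure D1:**
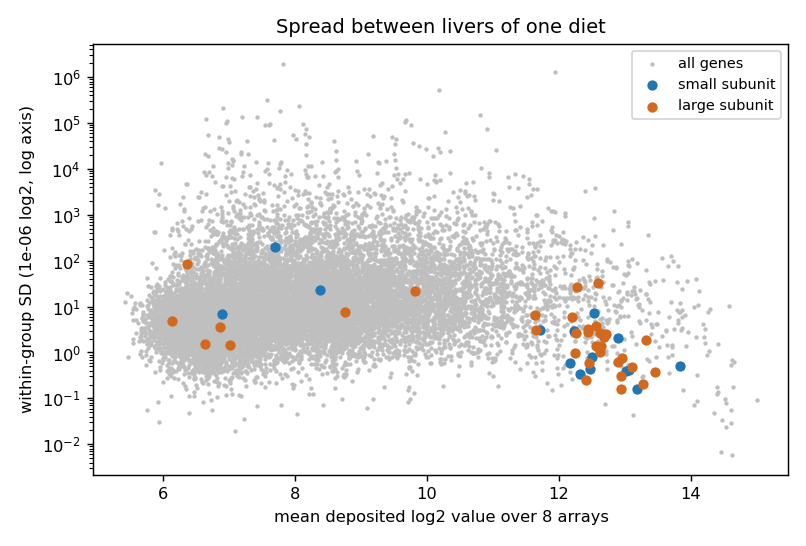
Within-group SD (log axis, in 1e-06 log2) against the mean deposited log2 value over 8 arrays, with 1 point per gene, the small subunit in blue, the large subunit in orange and all genes in grey. Most members lie at the bright end with SDs of a few millionths, while Rps4y2 has the largest SD of the members at 200 millionths.

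The array values as a whole were alike in scale, with medians from 7.1199 to 7.1207, and at most 0.026% of values were identical between any 2 arrays. Hamp, which iron deficiency is known to lower, read 15.991 to 16.099 in control livers, and in iron-deficient livers 10.58 in replicate 2 and 6.93 to 6.99 in the other 3.

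The comparison asked whether ribosomal protein transcripts differ between livers of iron-deficient and control rats. None of the 48 passed the threshold of 0.05 in limma (adjusted p from 0.277 upward, adjusted over 31042 probe sets), where 6 of 14217 genes, or 0.0422%, passed. Under quantile normalization 36 of the 48 passed and 36 did not overlap, where 778 of 14217 genes passed. The share of all genes without overlap was not counted in that run. However, 35 members then had no spread left within a diet. None of the members passed in the same run without Hamp, where 52 genes did. As deposited, 34 members were lower on average in iron-deficient than in control livers and 14 were higher. Under median centring, which adds a constant larger than nearly all of these differences, all 48 were higher. Only 9.2% of all genes were then lower, so that shift was not particular to the members. Under quantile normalization 43 members were higher, with 43.4% of all genes lower. The same run without Hamp left 36 members that showed no difference, with 7 lower and 5 higher, and 63.9% of all genes lower. Over all genes in the values as deposited, the background was 53% lower and 47% higher. The median standardised difference there was -0.53 for the members and -0.07 for all genes. At an unadjusted limma p under 0.05 there were 2 lower members, Rps28 and Rpl26l1, and 1 higher member, Rps4y2, beside 7.5% of all genes lower and 5.74% higher. The diets did not overlap for 3 lower members and 1 higher member, beside 4.4% and 3.42% of all genes. For both measures the shares of the 48 are near the background. The differences of single members below are those of the values as deposited, and all 34 lower ones turned higher under median centring.

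**Figure D2:**
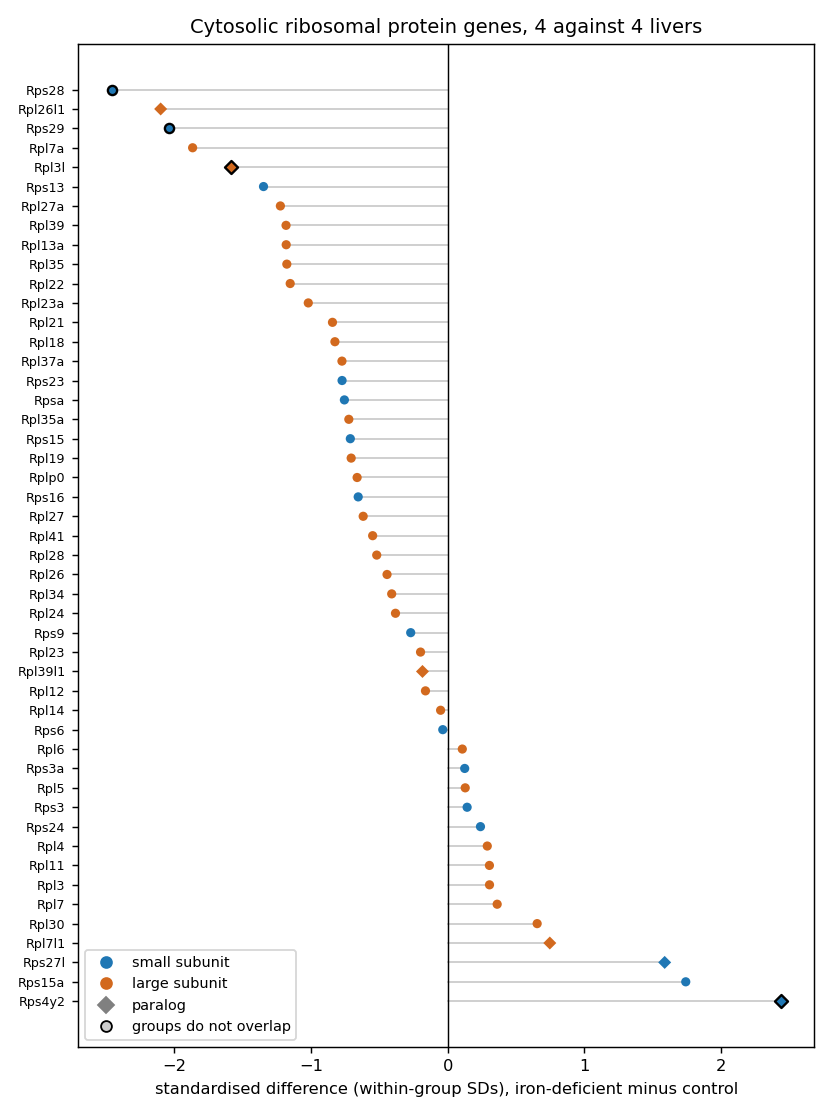
Standardised difference (iron-deficient minus control, in within-group SDs) for each of the 48 members, 4 against 4 livers; blue is the small and orange the large subunit, diamonds are paralogs and black rims mark diets that do not overlap. The order runs from Rps28 at -2.46 to Rps4y2 at 2.44, with 34 members left of 0 and none past the limma threshold.

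**Figure D3:**
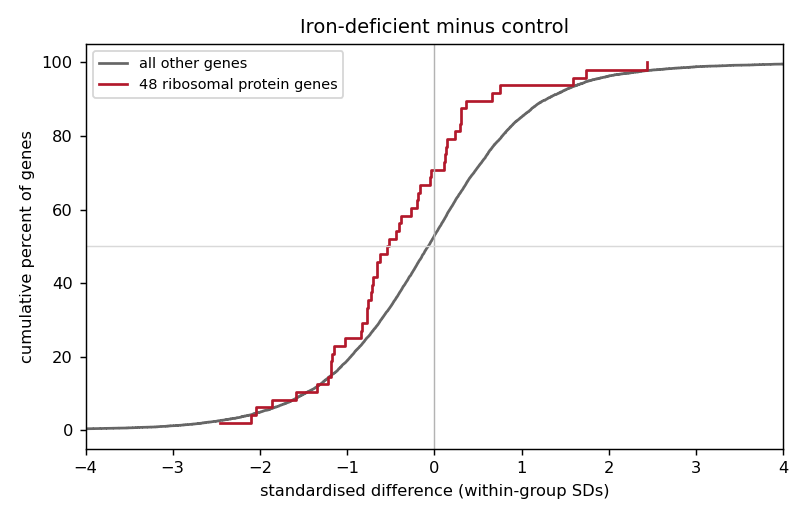
Cumulative percent of genes (vertical) against the standardised difference (horizontal, within-group SDs), for the 48 members in red and all other genes in grey. The red curve lies left of the grey one around its middle, with medians of -0.53 and -0.07.

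How far the lean toward lower values depends on single livers can be read by array. Each value was expressed as its deviation from the midpoint of the 2 group means in within-group SDs. The median over the 48 members was 0.09, -0.65, -0.15 and -0.15 in iron-deficient replicates 1 to 4. It was 1.02, -0.67, 0.09 and 0.23 in control replicates 1 to 4. Control replicate 1 is the highest, control replicate 2 is the lowest together with iron-deficient replicate 2, and the diets overlap. Control replicate 1 held the highest of the 8 values for 19 members, and iron-deficient replicate 2 the lowest for 16. Without control replicate 1, 26 members were lower and 22 higher, and 8 did not overlap, 5 lower and 3 higher. The share of all genes without overlap was not counted with an array left out. Smaller groups also separate more easily by chance, so this count cannot be set beside that from 8 arrays. Without control replicate 2 the split was 40 and 8. Without iron-deficient replicate 2 the median standardised difference was -0.21, with 31 lower and 17 higher. With each array left out in turn, 24 of the 34 lower members and 5 of the 14 higher ones kept their direction every time.

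**Figure D4:**
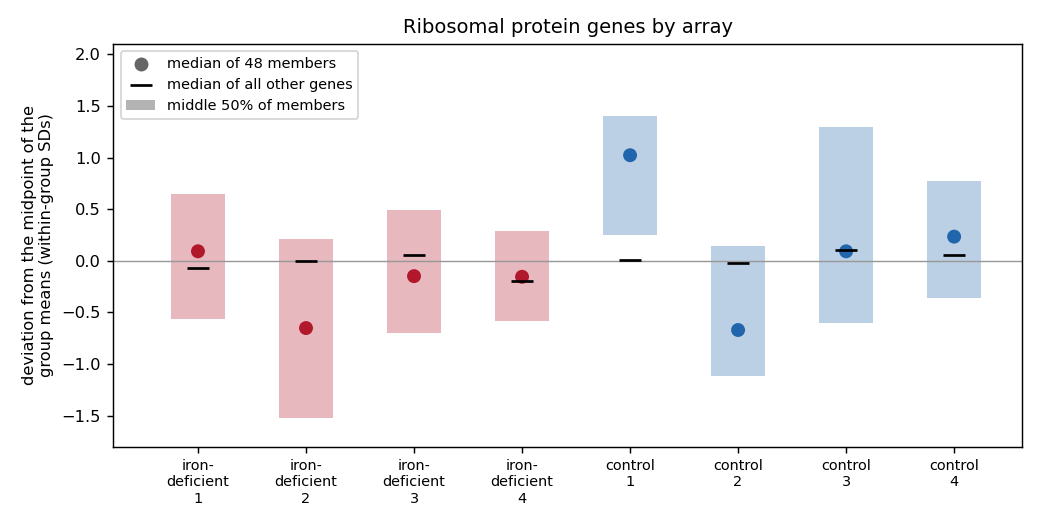
Deviation from the midpoint of the group means (vertical, within-group SDs) on each of the 8 arrays; circles are the median and boxes the middle 50% of the 48 members, and black bars are the median of all other genes. Control replicate 1 stands highest at 1.02 and control replicate 2 lies at -0.67, beside iron-deficient replicate 2 at -0.65.

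Both subunits leaned the same way in their core proteins. In the small subunit 9 of 13 core members were lower, with a median standardised difference of -0.65, and in the large subunit 22 of 29 were, with a median of -0.55. Without control replicate 1 these counts were 8 of 13 and 16 of 29. In control replicate 1 the small subunit core stood at a median deviation of 0.79 and the large subunit core at 1.07, so both subunits were high on that array. Core members with a pyrimidine tract near the annotated start were lower in 19 of 24 cases (median -0.68) and those without one in 7 of 11 (median -0.44). Tracts wholly before the start are counted here too. The contrast was not tested and was not repeated without control replicate 1. The 6 paralogs were split, 3 lower and 3 higher.

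Rps28, a small core protein of the small subunit, had the largest standardised difference downward. Its deviations from its own mean over 8 arrays were -1.63, -8.41, -1.22 and -4.25 millionths in the iron-deficient livers and 7.6, 0.44, 3.02 and 4.42 in the control livers. All 4 iron-deficient values lie below all 4 control values. The difference was -7.75 ± 2.24 millionths (SE, n = 4 per diet), a standardised difference of -2.46, with a limma adjusted p of 0.296.

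Rps29, a zinc-binding protein of the small subunit head, read -0.09, -1.11, -0.26 and -0.64 millionths from its mean in iron-deficient and 1.36, 0.27, 0.22 and 0.22 in control livers. The diets do not overlap, and 3 control values sit within a narrow band below control replicate 1. The difference of -1.04 ± 0.773 millionths (SE, n = 4 per diet) was a standardised difference of -2.04, with a limma adjusted p of 0.677. limma draws the variance of very stable probe sets toward that of the others, so the lowest SE of any member was 0.70 millionths. Rps29, with a within-group SD of 0.510 millionths, was tested against such an SE.

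Rpl3l, the striated-muscle relative of Rpl3, read -0.91, 0.12, 0.02 and -4.16 millionths in iron-deficient and 2.19, 0.21, 1.72 and 0.81 in control livers. The diets are apart only by the step from 0.12 to 0.21, and the probe set is dim in both groups (mean 6.64). The difference was -2.46 ± 1.26 millionths (SE, n = 4 per diet; limma adjusted p = 0.525). Rpl3 itself, a core protein near the peptidyl transferase centre, differed by 0.230 ± 0.857 millionths, with a second probe set at -0.162.

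Rps4y2, a copy of the small subunit protein gene Rps4x that the RefSeq table places on chromosome 4, was the member with the largest upward difference. It read 395, 101, 430 and 49.7 millionths in iron-deficient and -128, -523, -260 and -64.8 in control livers, with no overlap. The difference was 488 ± 135 millionths (SE, n = 4 per diet), a standardised difference of 2.44, with a limma adjusted p of 0.277. Under quantile normalization it was 882 millionths (limma adjusted p = 0.00678), and in the same run without Hamp it was 745 (limma adjusted p = 0.177). Over the other alternatives the limma adjusted p ran from 0.249 to 0.964. Many ribosomal protein genes have near-identical processed copies, so a probe set can also bind RNA of a copy.

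**Figure D5:**
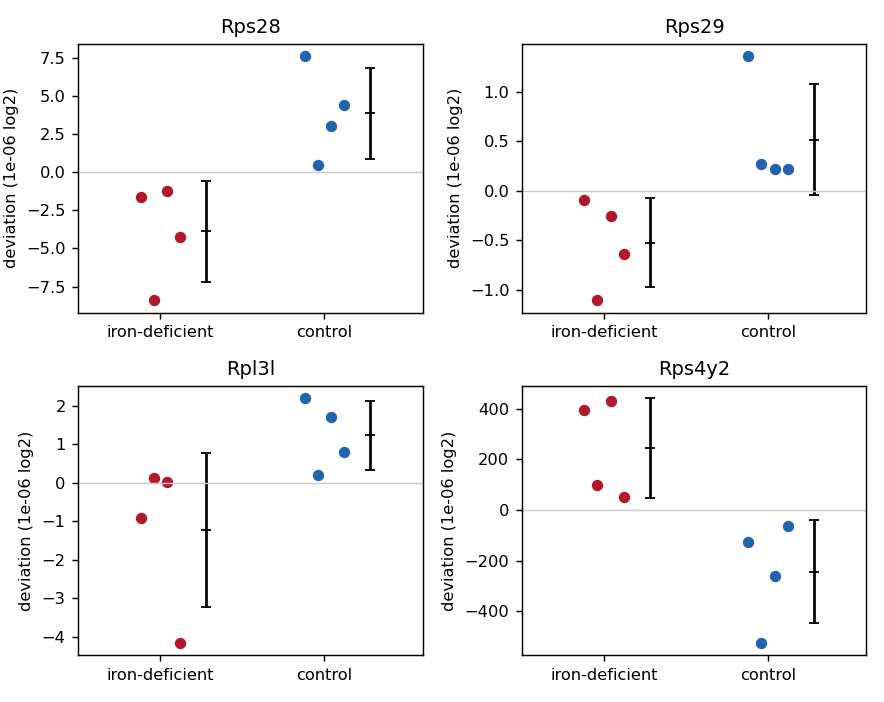
Deviation of each liver from the gene's mean over 8 arrays (vertical, 1e-06 log2, with a separate scale per panel) for the 4 members whose diets do not overlap; black bars are mean ± SD of 4 livers. In the values as deposited Rps28, Rps29 and Rpl3l are lower and Rps4y2 is higher in iron-deficient livers, while under median centring all 4 were higher, and the closest pair is that of Rpl3l, at 0.12 and 0.21.

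Among the other paralogs, Rpl26l1, a relative of Rpl26, read -7.12, -5.44, -1.76 and -0.80 millionths in iron-deficient and -2.20, 4.41, 6.82 and 6.09 in control livers. Only control replicate 1 falls within the iron-deficient range. The probe set is dim in both groups (mean 6.86, below every array median). Rpl26l1 differed by -7.56 ± 2.53 millionths (SE, n = 4 per diet, limma adjusted p = 0.350). Rpl26 differed by -0.168 ± 0.737 millionths. Rps27l, a relative of Rps27 known as a p53 target, differed by 36.1 ± 15.4 millionths, with 3 of 4 iron-deficient livers above the control mean (limma adjusted p = 0.448). Rpl7l1 differed by 16.0045 ± 14.5 millionths, but its second probe set read -25.9 ± 17.2, and its core relative Rpl7 differed by 0.895 ± 1.81. Rpl39l1 differed by -15.5 ± 56.8 millionths, and Rpl39, a small protein of the exit tunnel, by -9.11 ± 5.25. None of these pairs showed a difference past the threshold in either gene.

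The members best known for roles beyond the ribosome or as references showed no difference past the threshold. Rps6, the subunit protein phosphorylated by S6 kinase, differed by -0.0150 millionths, with a 95% interval from -1.81 to 1.78. Its values ran from -0.44 to 0.42 in iron-deficient and from -0.61 to 0.38 in control livers, so the diets fully interleave. Rpl5 and Rpl11, which with 5S ribosomal RNA bind the p53 regulator Mdm2, differed by 0.275 (95% interval -3.56 to 4.11) and 0.812 millionths (-3.80 to 5.42). Rplp0, the base of the ribosomal stalk and a common reference gene, differed by -0.902 millionths (-3.66 to 1.86). Rpl13a, another reference gene, differed by -3.88 millionths (-9.44 to 1.69). Its highest iron-deficient value, 2.68 in replicate 1, exceeded 3 of the 4 control values.

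Rpsa, also known as the laminin receptor precursor, had 3 probe sets, and all were lower, with standardised differences of -0.76, -1.01 and -1.56 and limma adjusted p from 0.526 to 0.759. In all 6 genes had more than 1 probe set, and over the 55 probe sets 39 were lower and 16 higher. The probe sets agreed in sign for Rpsa, Rpl14, Rpl7 and Rps24 and disagreed for Rpl3 and Rpl7l1. Of the remaining members, Rpl7a differed by -0.390 millionths with a standardised difference of -1.87. Rps15a read 0.27 to 0.81 millionths in iron-deficient livers and -1.04 to -0.84 in control replicates 2 to 4, but 0.70 in control replicate 1, and had a standardised difference of 1.74. Rack1, a ribosomal protein whose name lies outside the symbol rule, differed by -0.125 ± 0.705 millionths (limma adjusted p = 0.974).

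Related gene lists showed no member past the threshold in limma. Directions in these lists, here and below, are those of the values as deposited. They were not counted under median centring, where 9.2% of all genes were lower and the median difference of all genes was 50.4 millionths. Mitochondrial ribosomal protein genes were lower in 55 of 73 cases (median standardised difference -0.64), with 12 lower and 0 higher at an unadjusted limma p under 0.05 and 11 lower and 0 higher without overlap, beside the 7.5% and 5.74%, and the 4.4% and 3.42%, of all genes. Proteasome subunit genes were higher in 28 of 44 (median 0.22). The difference between these families and the cytosolic one was not tested. Factors of ribosome assembly were lower in 36 of 55 (median -0.27). Imp3, of the small subunit processome, differed by 17.1 ± 4.43 millionths, the nucleolar GTPase Gnl3 by 69.1 ± 22.2 and Lsg1, which acts in the last steps of large subunit maturation, by -12.8 ± 5.24. RNA polymerase I genes, which transcribe ribosomal RNA, were lower in 11 of 13 (median -0.50), with the subunit Polr1h at -64.5 ± 17.1 millionths, Polr1d at -4.99 ± 2.71 and the initiation factor Taf1b at 12.7 ± 3.88. The elongation list, which holds elongation and termination factors and related genes, was split, 7 of 15 lower. In it the kinase Eef2k differed by -123 ± 62.7 millionths, Eef1e1 by 41.8 ± 28.7 and the termination factor Etf1 by -4.61 ± 3.74. Initiation factors were split too, 17 of 33 lower, with Eif3m at 77.1 ± 29.4, Eif3h at -4.38 ± 1.86 and Eif2s3 at 104 ± 48.7.

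Genes of mTOR and S6 kinase signalling were lower in 15 of 28 cases (median -0.12). Eif4ebp1, which represses cap-dependent initiation, had the lowest adjusted p of the lists named so far, at -58.4 ± 6.54 millionths (limma adjusted p = 0.0735). The endothelial markers Egfl7 and Ptprb, of a list given below, had the same adjusted p. Rps6kb1, the S6 kinase gene, differed by 47.1 ± 13.6 millionths (limma adjusted p = 0.296) and Lamtor2, of the lysosomal anchor of mTOR, by -3.08 ± 0.957. The diets did not overlap for 2 lower genes of the list, Eif4ebp1 and Lamtor2, and 2 higher ones, Rps6kb1 and Ddit4, beside 4.4% and 3.42% of all genes. Ddit4, an inhibitor of mTOR complex signalling that was added here for its values, differed by 2057 ± 643 millionths (limma adjusted p = 0.326).

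In bulk liver RNA, fewer cells of a type and less RNA per cell cannot be told apart. All hepatocyte markers were far above the array medians, at 12.76 to 15.0025, and 4 of 9 were higher in iron-deficient livers. Endothelial markers were higher in 8 of 9 cases, and their summed log2 values ran from 82.9519 to 82.9545 in iron-deficient and from 82.9468 to 82.9478 in control livers. Stellate cell markers were higher in 8 of 10 (sums of 78.6012 to 78.6153 and 78.5940 to 78.5993) and Kupffer cell markers in 9 of 9 (86.6979 to 86.6991 and 86.6977 to 86.6988). These sums give most weight to the probe sets with the largest differences. For stellate markers these were Lum (3835 millionths), Dcn (2759), Rgs5 (2264) and Col3a1 (1991), while 2 markers were lower. Lum was dim, at 5.94 in both diets, under the 25th percentile (6.55). For endothelial markers they were Flt1 (2461) and Stab2 (2254), with 1 marker lower. Median standardised differences were 1.67 for stellate, 3.66 for endothelial and 0.59 for Kupffer cell markers. Cholangiocyte markers were higher in 3 of 5, lymphocyte markers in 3 of 9 and erythroid genes in 5 of 7. No marker was listed at 0, and the part of these cells in the ribosomal protein values was not tested.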

How the data were processed

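Liver RNA (2 ug of total RNA per array, labelled with biotin) was measured on Affymetrix rat expression arrays, per the labels. The deposited numbers are log2 values, as judged from their range. The probe summary and array normalization are not given in the sources used here. Of 31099 probe sets, 57 controls were left out. Of the other 31042, 20826 had 1 symbol in the platform annotation, 436 several and 9780 none. Members kept their platform symbols, and 46 of 48 were matched by gene identifier to RefSeq.

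Iron-deficient minus control was fitted over all 31042 probe sets in limma 3.58.1 (lmFit, then eBayes) under R 4.3.3, with Benjamini-Hochberg adjustment and a threshold of 0.05. In data simulated for this comparison on 31042 probe sets, shifts of 2, 4, 8 and 16 within-group SDs were recovered in 4%, 20%, 92% and 96% of 50 probe sets each, with 4 false calls. Those probe sets were drawn at random from all, and each shift was scaled by the probe set's own SD. Members had a median SD of 1.93 millionths against 8.72 for all genes, so these shares need not hold for them. The number of arrays limits the precision.

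Members, lists and tests were chosen with earlier results of these data known. Named were up to 8 members per direction whose diets did not overlap, a fixed set of members (Rplp0, Rpsa, Rps6, Rpl5, Rpl11 and Rpl13a were measured by a probe set with 1 symbol), paralogs with their relatives, and from each pathway list the 3 genes with the largest absolute limma statistic. Rpl7a, Rps15a and Rps27l were named after their values were seen, as were the 5 sequences beside those of members without overlap.

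Alternatives were quantile normalization with and without the Hamp probe set (rounded to 8 decimals), median centring, a filter dropping the dimmest 25% of probe sets, other variance models, a replicate block, other probe sets per gene and each array left out.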

Additional observations from a re-analysis of the deposited data

Results flagged for a closer look

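In groups of 4 livers, 1 value stood apart from the other 3 by more than Dixon's 95% limit in 5 of 96 tests (48 members in both diets), where chance gives about 1 in 20, or 4.8. Control replicate 1 was the high value for 3 of them: Rps29 at 1.36 millionths of a log2 unit from the gene's mean, Rps24 at 0.83 and Rps15a at 0.70. Iron-deficient replicate 3 was the low value for Rps13, at -9.42 millionths, and for Rpl35a, at -2.79 millionths. Rps13, a small subunit core protein, had a standardised difference of -1.35 and Rpl35a, of the large subunit, one of -0.72. No explanation was tested for these values.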

How the results depend on the processing

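Trend and robust variance models, the filter on dim probe sets (46 members left) and the replicate block gave no member past the limma threshold (3 at an unadjusted p under 0.05). These settings cannot change the difference of a member or the overlap of its diets. The 32 to 34 members lower there are thus no check on direction. Whether the replicate numbers pair the rats is not settled. In their deviations from the group means, same-numbered arrays correlated at -0.11 to 0.02 and differently numbered ones at -0.15 to 0.17. So few arrays cannot decide it. With the replicate block the median standardised difference was -0.61 and no member was called, while the count of called genes fell from 6 to 0. Quantile normalization gave 36 members past the limma threshold, 42 with an unadjusted p under 0.05, 43 higher, 36 without overlap and a median standardised difference of 1 over members with any spread. Of 14217 genes 778 passed in that run, and the shares of all genes for the unadjusted p and for overlap were not counted. There 35 members had no spread left within a diet, because they held 1 rank on every array of a diet and the Hamp probe set moved past them. With Hamp left out, 36 members had no difference, 5 were higher and 1 was without overlap. Median centring gave 48 higher, 1 with an unadjusted p under 0.05, 0 without overlap and a median of 0.17. Of all genes 9.2% were lower there, with a median standardised difference of 0.17 as well. Chosen after seeing the data, a linear model without moderation gave 6 members with an unadjusted p under 0.05, 4 lower and 2 higher, and adding 36 ribosomal probe sets with several symbols gave 5, with 22 of 84 higher. With each array left out in turn, 8 to 22 members were higher, 2 to 4 had an unadjusted p under 0.05, 4 to 8 did not overlap, and the median ran from -0.71 to -0.21. The cause of these last changes was not tested, and the matching shares of all genes without overlap were not counted.

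Signs of named members, in millionths, turned under quantile normalization for Rps28 (885), Rps29 (8352), Rplp0 (6587), Rpsa (7394), Rps6 (2303), Rpl13a (1310), Rpl26 (4476) and Rpl39 (175, and 14.5 without Hamp). Under median centring they turned for Rps28 (42.8), Rps29 (49.5), Rpl3l (48.1), Rplp0 (49.7), Rpsa (48.3), Rps6 (50.6), Rpl13a (46.7), Rpl26 (50.4), Rpl26l1 (43.0), Rpl39 (41.5) and Rpl39l1 (35.1). Other probe sets turned Rpl3 (-0.162) and Rpl7l1 (-25.9, or -4.96 as the mean of its probe sets). With 1 array left out the sign turned for Rps6 (-0.223 to 0.128), Rpl39l1 (-64.0 to 10.5), Rpl5 (-0.953 to 1.09), Rpl7 (-0.325 to 1.93), Rpl26 (-0.303 to 0.0150), Rpl11 (-0.120 to 2.30) and Rpl3 (-0.0850 to 0.582).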

Other observations

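Many ribosomal protein genes could not be named, because their probe sets carry several symbols, mostly of a gene and its processed copies. These 36 probe sets were lower in iron-deficient livers in 28 cases and higher in 8, with a median standardised difference of -0.74. None passed the limma threshold (lowest adjusted p = 0.264), 2 were lower and 0 higher at an unadjusted p under 0.05, and 2 lower ones had diets that did not overlap. Over all genes these shares were 7.5% and 5.74% at that p, and 4.4% for lower values without overlap. They were measured on the same 8 arrays and can bind the RNA of members, so they are not separate evidence.

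Bright probe sets as a whole also leaned lower. Of 326 other genes with a mean deposited value of 12 or more, 205 (62.9%) were lower, with a median standardised difference of -0.28, beside 25 of the 35 members in that range, with a median of -0.55. The value of 12 was chosen after the levels were seen. On control replicate 1 the median deviation of those 326 genes from the midpoint of the group means was 0.41 within-group SDs, and on control replicate 2 it was 0.15, where the 48 members stood at 1.02 and -0.67.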
